A study of Mus musculus with 6 samples.

Results

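The genes of the IκB kinase (IKK) complex, the IKK-related kinases and the kinases upstream of them were followed in MLE12 cells in which mitochondrial citrate handling was perturbed. The 10 members were the rows of the deposited count table, which holds 54532 genes, whose gene name equals *Chuk*, *Ikbkb*, *Ikbkg*, *Ikbke*, *Tbk1*, *Map3k7*, *Tab1*, *Tab2*, *Map3k8* or *Map3k14*, and all 10 were detected well enough to be tested. MLE12 is a mouse lung epithelial line that was made with a viral oncogene driven by the surfactant protein C promoter, and the labels give its strain as C57BL/6J. RNA was sequenced from 3 samples that had received a control lentivirus (Ctrl shRNA) and from 3 that had received the Idh3α shRNA and Slc25a1 shRNA lentiviruses together (SI shRNA). The paper calls the control vector empty, but also gives a sequence for it and names it shCtrl. *Idh3a* encodes the catalytic subunit of mitochondrial isocitrate dehydrogenase 3 and *Slc25a1* the mitochondrial citrate carrier, and lowering both in these cells served to model citrate build-up in mitochondria. Each virus was used at a multiplicity of infection of 50, was washed off after 16 h and was followed by 80 h of culture. By this account SI shRNA cells received 2 viruses and Ctrl shRNA cells 1. The paper does not say whether the control dose was raised to match, so the virus load and the knockdown cannot be told apart. All cells grew in a hormone-supplemented medium with little serum, and the labels name no other treatment. The labels do not say whether the replicates were separate cultures, so every p-value measures only the spread between these samples, which may be technical.

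NF-κB transcription factors are held in the cytoplasm by IκB proteins until the IKK complex phosphorylates the IκBs and so marks them for degradation. The complex consists of the kinases IKKα (*Chuk*) and IKKβ (*Ikbkb*) and the regulatory subunit NEMO (*Ikbkg*). It is switched on by TAK1 (*Map3k7*) with the adaptor proteins TAB1 and TAB2 downstream of TNF, interleukin-1 and Toll-like receptors, or by NIK (*Map3k14*), which acts through IKKα in the noncanonical branch. TPL2 (*Map3k8*) is held by p105 NF-κB1, is released after IKK acts on p105 and drives the ERK pathway. The IKK-related kinases TBK1 (*Tbk1*) and IKKε (*Ikbke*) phosphorylate interferon regulatory factors. *Tbk1* is expressed in most cells, whereas *Ikbke* is known as an inducible gene, first described in immune cells. These kinases are regulated mainly through phosphorylation, ubiquitin chains and protein stability, none of which an RNA measurement reads.

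RefSeq start-site sequences on GRCm38.p6, from 250 bases before to 50 bases after the start, were examined for 7 of the 10 members. These were *Chuk*, *Ikbkg*, *Ikbke*, *Tbk1*, *Map3k7*, *Tab2* and *Map3k14*. The start sites of the other members, among them the member with the largest fold change, were not examined, so their motifs are unknown here. The windows shown are those of the pair of IKK-related kinases, whose fold changes are set side by side below, and of *Map3k7*. Of the 7 members examined, *Map3k7* was the only one with a κB consensus match. Capitals mark matches, on either strand, to the κB consensus, the AP-1 site TGACTCA, the GC box GGGCGG, the CCAAT box or the ETS site CCGGAAG. The windows are chr1:131279514-131279813 on the minus strand for *Ikbke*, chr10:121586745-121587044 on the minus strand for *Tbk1* and chr4:31963857-31964156 on the plus strand for *Map3k7*.
Ikbke: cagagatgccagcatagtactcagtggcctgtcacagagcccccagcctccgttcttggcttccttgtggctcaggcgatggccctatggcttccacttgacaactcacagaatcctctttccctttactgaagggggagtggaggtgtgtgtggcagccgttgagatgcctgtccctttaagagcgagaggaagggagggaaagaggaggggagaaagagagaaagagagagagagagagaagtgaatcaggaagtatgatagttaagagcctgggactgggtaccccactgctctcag
Tbk1: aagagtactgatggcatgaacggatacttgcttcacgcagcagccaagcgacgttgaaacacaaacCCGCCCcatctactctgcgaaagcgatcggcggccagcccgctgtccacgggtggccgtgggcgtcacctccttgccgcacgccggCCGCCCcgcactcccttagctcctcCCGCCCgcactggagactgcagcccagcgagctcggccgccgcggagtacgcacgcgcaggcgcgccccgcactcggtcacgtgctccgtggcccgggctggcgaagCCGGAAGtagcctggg
Map3k7: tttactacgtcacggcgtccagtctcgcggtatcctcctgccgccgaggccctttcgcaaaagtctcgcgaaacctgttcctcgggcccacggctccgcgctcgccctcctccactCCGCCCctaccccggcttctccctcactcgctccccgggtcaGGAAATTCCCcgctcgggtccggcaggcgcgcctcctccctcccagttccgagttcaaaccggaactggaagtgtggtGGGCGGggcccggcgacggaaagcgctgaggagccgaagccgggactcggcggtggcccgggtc
The *Ikbke* window held no match to any of these motifs. The *Tbk1* window held 3 GC boxes and 1 ETS site, and the *Map3k7* window 2 GC boxes and 1 κB match that begins 92 bases before the start. Among 32851 mouse promoter windows of this length, 8.46% held a κB match, 35.7% a GC box, 8.86% the ETS site, 37.4% a CCAAT box and 5.2% the AP-1 site. The G+C content was 54% for *Ikbke* and 69% for both others. The *Ikbke* gene lies at chr1:131254343-131279606 on the minus strand, and *Tbk1* at chr10:121546455-121586787 on the minus strand.

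The libraries held 27273502 to 28535653 counts each, so depth was similar. Ctrl shRNA replicate 2 stood apart, with 16681 genes detected against 19902 to 23147 in the other libraries, 6.49% of counts from mitochondrially encoded genes against 1.57% to 1.80%, and 27.2% of counts in its 100 most abundant genes against 12.5% to 12.9%. The members together took 0.0497% of its counts and 0.0825% to 0.0930% of the others. The fold changes of the members are therefore given with all 6 libraries and without this one. The targeted *Idh3a* had 79.8, 137 and 93.0 CPM (counts scaled by library size and TMM factors) in Ctrl shRNA replicates 1, 2 and 3 and 58.5, 57.9 and 55.5 in SI shRNA. The corresponding *Slc25a1* values were 103, 98.7 and 108 against 68.9, 69.6 and 63.0 CPM, so neither targeted gene overlapped between the groups. In edgeR, neither passed with all 6 libraries (log2 fold change -0.85, adjusted p = 0.254 for *Idh3a* and -0.62, adjusted p = 0.104 for *Slc25a1*) and both fell without Ctrl shRNA replicate 2 (-0.60, adjusted p = 0.0142 and -0.66, adjusted p = 0.00649), and DESeq2 called both lower with all libraries (adjusted p = 0.0170 and 6.37e-08). Of 9 alveolar type 2 markers, 6 had at least 10 counts and *Sftpd* was at 0 in every library. *Nkx2-1*, which marks lung epithelium, had 324 to 343 CPM in Ctrl shRNA and 277 to 302 CPM in SI shRNA, and *Sftpc*, the surfactant protein C gene, had 44.1, 97.3 and 50.9 against 35.9, 28.5 and 27.2 CPM, with a log2 fold change of -1.07 in edgeR with all libraries (adjusted p = 0.315, DESeq2 adjusted p = 0.0515) and of -0.65 without Ctrl shRNA replicate 2, where it passed (edgeR adjusted p = 0.0438). Of the other tested markers of this list, *Abca3* and *Sftpb* had log2 fold changes of 0.06 and 0.15 with all libraries and -0.04 and -0.22 without that one, and *Napsa* had 0.453 to 0.759 CPM in Ctrl shRNA against 1.18 to 1.38 CPM in SI shRNA, so 3 of the 5 tested were positive with all libraries (median 0.06) and 2 of the 6 tested without Ctrl shRNA replicate 2 (median -0.13). Leukocyte markers summed to 1.74 to 2.51 CPM in Ctrl shRNA and 2.50 to 2.92 CPM in SI shRNA, with *Ptprc*, *Itgam* and *Adgre1* at 0 in every library. All alveolar type 2 markers summed to 524 to 533 CPM in Ctrl shRNA and to 442 to 473 CPM in SI shRNA, a difference carried by *Nkx2-1* and *Sftpc*, and its part in the results below was not tested. Fibroblast markers summed to 346 to 1233 CPM in Ctrl shRNA and 317 to 344 CPM in SI shRNA, with *Dcn* at 1211 CPM in Ctrl shRNA replicate 2 and 297 to 354 CPM in the other libraries. *Pdgfra* went the other way, with 2.23 to 2.68 CPM in Ctrl shRNA against 3.43 to 3.91 CPM in SI shRNA. *Col1a1* overlapped (19.7 to 22.7 against 16.5 to 22.8 CPM) and *Col3a1* was at 0. The part of these markers was not tested either. In such bulk samples, fewer cells of a type and less RNA per cell cannot be told apart.

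*Ikbke* and *Map3k8* showed the largest differences of the 10, the IKK subunits and *Map3k14* lay slightly higher in SI shRNA, and *Tbk1*, *Map3k7*, *Tab1* and *Tab2* overlapped between the groups. With all 6 libraries, 0 of the 10 members passed an adjusted p of 0.05 in edgeR in either direction, where 0.0588% of the 15307 genes tested were called higher and 0.00653% lower. At an unadjusted p under 0.05, 5 members (*Ikbkb*, *Ikbkg*, *Ikbke*, *Map3k8* and *Map3k14*) were higher, beside 7.47% of all genes, and 0 were lower, beside 6.65%. Without Ctrl shRNA replicate 2, edgeR called 1 member, *Ikbke*, higher, beside 1.11% of the 15709 genes tested, and 0 lower, beside 0.675%. DESeq2 called *Ikbke* and *Map3k8* with all libraries, beside 2.20% of its tested genes called higher, and the same 2 members without Ctrl shRNA replicate 2, beside 4.74%. When limma-voom weighted each library by its quality, it called 5 members higher (*Ikbkb*, *Ikbkg*, *Ikbke*, *Map3k8* and *Map3k14*), beside 8.67% of all genes. The weights of Ctrl shRNA replicates 1, 2 and 3 were 0.621, 0.101 and 3.19, so replicate 3 carried most of the control weight in that fit.

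**Figure D1:**
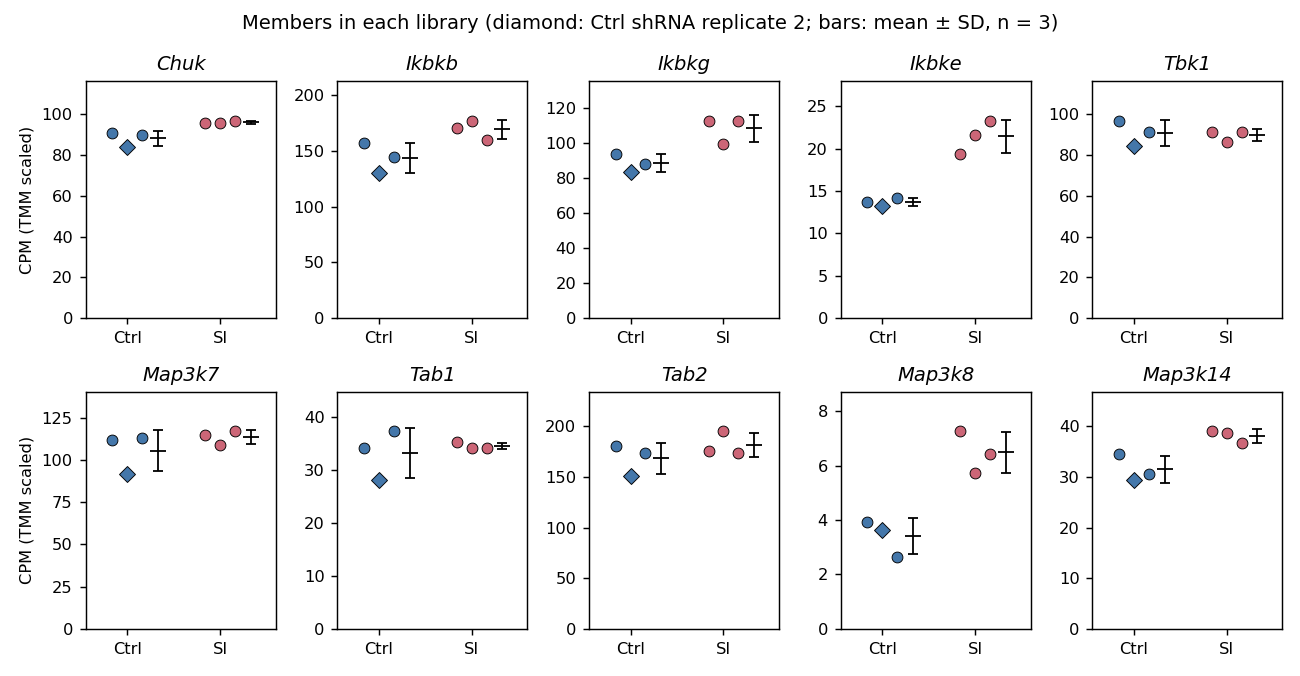
TMM-scaled CPM (vertical axes, from 0) of the 10 members in each library of Ctrl shRNA (blue) and SI shRNA (red), with the mean ± SD of 3 libraries in black and Ctrl shRNA replicate 2 as a diamond. The 3 SI shRNA libraries lie above all 3 Ctrl shRNA libraries for 6 members, among them *Ikbke* (19.4 to 23.3 against 13.2 to 14.2 CPM), and overlap with them for *Tbk1*, *Map3k7*, *Tab1* and *Tab2*.

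The 3 SI shRNA libraries lay above all 3 Ctrl shRNA libraries for *Chuk*, *Ikbkb*, *Ikbkg*, *Ikbke*, *Map3k8* and *Map3k14*, that is for 6 of the 10 members, while this held for 14.7% of all genes. Groups of 3 against 3 libraries cannot give an exact two-sided permutation p under 0.10. Ctrl shRNA replicate 2 had the lowest CPM of the 6 libraries for 9 members, all but *Map3k8*, where this held for 38.7% of all genes, so its low values enter most of the differences described here. The median log2 fold change of the members was 0.18, against -0.0092 over all genes tested, and 0.12 against -0.02 without that library.

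Among the subunits of the IKK complex, *Ikbkg* showed the largest difference and *Chuk* the smallest. *Chuk*, the IKKα kinase at chr19:44073335-44107480, had 90.9, 83.9 and 89.7 CPM in Ctrl shRNA and 95.4, 95.4 and 96.8 CPM in SI shRNA. These SI shRNA values were nearly identical and sat just above the highest control. The log2 fold change was 0.12 (95% interval -0.04 to 0.28, edgeR adjusted p = 0.400), and 0.08 (-0.06 to 0.22, adjusted p = 0.519 in edgeR) without Ctrl shRNA replicate 2. *Ikbkb*, the IKKβ kinase at chr8:22659212-22706589 that carries most of the canonical signal, had 157, 130 and 144 CPM in Ctrl shRNA against 170, 177 and 160 in SI shRNA. The lowest SI shRNA library exceeded the highest control only narrowly, with a log2 fold change of 0.23 (0.0035 to 0.46, edgeR adjusted p = 0.352). Without Ctrl shRNA replicate 2, the log2 fold change of *Ikbkb* was 0.16 (-0.01 to 0.33, edgeR adjusted p = 0.287). *Ikbkg*, the NEMO scaffold at chrX:74393290-74453854, had 94.1, 83.7 and 88.0 CPM against 113, 99.4 and 113 CPM. All 3 SI shRNA libraries were again above the controls, and the log2 fold change was 0.29 (0.08 to 0.51, edgeR adjusted p = 0.316) with all libraries and 0.25 (edgeR adjusted p = 0.161) without Ctrl shRNA replicate 2. The exons of *Ikbkg* share 418 bases with *G6pdx* on the opposite strand, and the use of strand in counting is not given in the sources used here, so reads of the pair may be mixed. *G6pdx*, which encodes an enzyme of the pentose phosphate pathway, averaged 2335 counts against 2806 for *Ikbkg* and had a log2 fold change of 0.25 (edgeR adjusted p = 0.316).

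Of the IKK-related kinases, *Ikbke* lay higher in SI shRNA and *Tbk1* overlapped between the groups. *Ikbke* counts were 423, 261 and 408 in Ctrl shRNA and 578, 655 and 691 in SI shRNA, or 13.7, 13.2 and 14.2 against 19.4, 21.6 and 23.3 CPM. The 3 controls lay close together, Ctrl shRNA replicate 2 included, and each SI shRNA library stood well above them (13.7 ± 0.507 against 21.4 ± 1.94 CPM, SD, n = 3). The log2 fold change was 0.65 (SE 0.11, 95% interval 0.39 to 0.90), which did not pass in edgeR with all libraries (adjusted p = 0.174). Without Ctrl shRNA replicate 2, *Ikbke* rose by 0.61 on the log2 scale (SE 0.11, 0.36 to 0.86, edgeR adjusted p = 0.0336). DESeq2 gave 0.64 with all libraries (adjusted p = 0.000342) and 0.62 without that one (DESeq2 adjusted p = 0.000224). Small antisense genes overlap *Ikbke* by 159 and 65 exon bases, but averaged 1.33 and 3.33 counts beside 503 for *Ikbke*. *Tbk1* had 97.0, 84.4 and 91.5 CPM in Ctrl shRNA against 91.4, 86.5 and 91.5 CPM in SI shRNA, so that the SI shRNA values lay inside the control range. Its log2 fold change was -0.02 (-0.21 to 0.17, edgeR adjusted p = 0.919), and without Ctrl shRNA replicate 2 it was -0.08 (-0.23 to 0.07, edgeR adjusted p = 0.547).

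**Figure D2:**
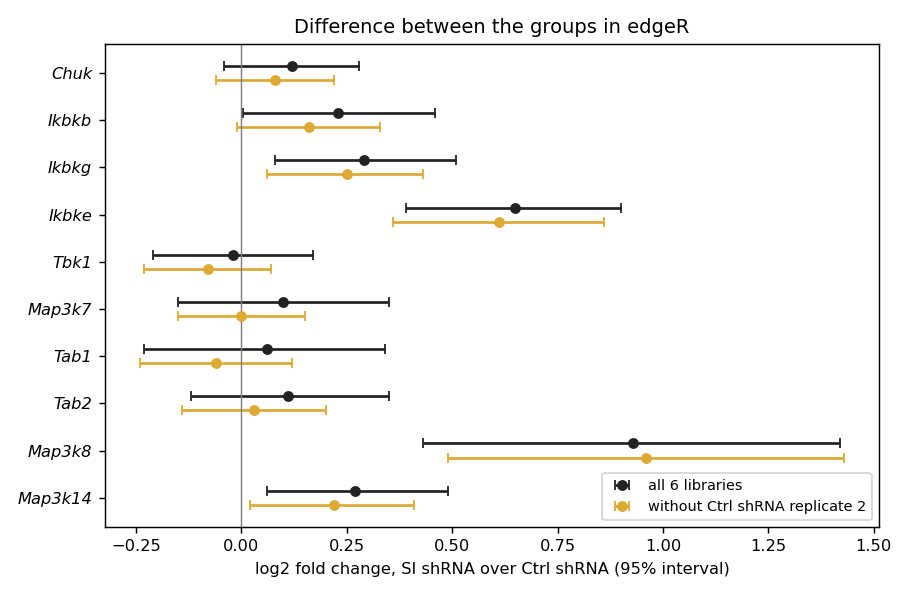
Log2 fold change of SI shRNA over Ctrl shRNA (horizontal axis) with its 95% interval in edgeR for each member, with all 6 libraries (black) and without Ctrl shRNA replicate 2 (yellow). *Ikbke* (0.65 and 0.61) and *Map3k8* (0.93 and 0.96) lie to the right of the other members, whereas the intervals of *Chuk*, *Tbk1*, *Map3k7*, *Tab1* and *Tab2* span 0 in both fits. The interval of *Ikbkb* spans 0 only without Ctrl shRNA replicate 2.

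The TAK1 kinase and its adaptors overlapped between the groups. *Map3k7*, at chr4:31964097-32023467, had 112, 91.5 and 113 CPM in Ctrl shRNA and 115, 109 and 117 CPM in SI shRNA. Only Ctrl shRNA replicate 2 stood away from the other values, and the log2 fold change of 0.10 (-0.15 to 0.35, edgeR adjusted p = 0.621) became -0.0014 (-0.15 to 0.15, edgeR adjusted p = 0.994) without it. *Tab1*, at chr15:80133127-80161707, encodes an adaptor that activates TAK1, and had 34.2, 28.1 and 37.3 against 35.2, 34.2 and 34.2 CPM. Its log2 fold change was 0.06 (-0.23 to 0.34, edgeR adjusted p = 0.827) with all libraries and -0.06 (-0.24 to 0.12, edgeR adjusted p = 0.708) without Ctrl shRNA replicate 2. *Tab2*, at chr10:7905653-7956230, encodes the adaptor that binds ubiquitin chains, and had 180, 151 and 174 against 176, 195 and 174 CPM. SI shRNA replicate 2 was its highest library and Ctrl shRNA replicate 2 its lowest, with a log2 fold change of 0.11 (-0.12 to 0.35, edgeR adjusted p = 0.566), or 0.03 (-0.14 to 0.20, edgeR adjusted p = 0.858) without the latter. 

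The other MAP3 kinases among the members were both higher in every SI shRNA library than in any control. *Map3k8*, the TPL2 gene at chr18:4331327-4353015, was the least abundant member, with 122, 72 and 76 counts in Ctrl shRNA and 216, 174 and 191 in SI shRNA, or 3.94, 3.64 and 2.65 against 7.26, 5.74 and 6.44 CPM. Here Ctrl shRNA replicate 2 lay between the other controls. The means of 3 libraries were 3.41 ± 0.676 and 6.48 ± 0.762 CPM (SD). The log2 fold change was 0.93 (SE 0.21, 95% interval 0.43 to 1.42) and did not pass in edgeR (adjusted p = 0.245), nor did the 0.96 without Ctrl shRNA replicate 2 (SE 0.21, 0.49 to 1.43, edgeR adjusted p = 0.0632). In DESeq2 it passed both with all libraries (0.92, adjusted p = 0.00858) and without that library (0.97, DESeq2 adjusted p = 0.00242), so its call depended on the test. *Map3k14*, the NIK gene at chr11:103219762-103267472, had 34.5, 29.4 and 30.5 CPM against 39.0, 38.6 and 36.6 CPM. Its SI shRNA libraries were close together above the controls, and the log2 fold change was 0.27 (0.06 to 0.49, edgeR adjusted p = 0.338) with all libraries and 0.22 (0.02 to 0.41, edgeR adjusted p = 0.215) without Ctrl shRNA replicate 2.

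Ratios of counts within a library do not depend on its scaling, and 8 of them were compared between related members. Per 100 *Tbk1* counts, *Ikbke* had 14.1, 15.6 and 15.5 counts in Ctrl shRNA and 21.2, 25.0 and 25.5 in SI shRNA. Ctrl shRNA replicate 2 lay with the other controls in this ratio, as it did in the CPM of *Ikbke*, and the groups differed by 0.66 on the log2 scale (exact two-sided permutation p = 0.10, the smallest that 3 against 3 allows, Benjamini-Hochberg adjusted p = 0.27 over the 8 ratios). *Map3k8* per 100 *Map3k14* counts was 11.4, 12.4 and 8.70 against 18.6, 14.9 and 17.6, and *Ikbkg* per 100 *Chuk* counts was 104, 99.8 and 98.1 against 119, 104 and 117. Neither of these overlapped, although the *Ikbkg* ratio of Ctrl shRNA replicate 1 and SI shRNA replicate 2 rounds to the same value (exact permutation p = 0.10, adjusted p = 0.27 for both). By contrast, the ratios of *Ikbkb* to *Chuk* (163 ± 9.14 against 176 ± 9.98 per 100, SD, n = 3) and of *Tab1* to *Map3k7* (31.4 ± 1.37 against 30.5 ± 1.08 per 100) overlapped between the groups (exact permutation p = 0.20 and 0.60, adjusted p = 0.32 and 0.69). The ratios of *Tab2* to *Map3k7*, *Tab1* to *Tab2* and *Map3k14* to *Map3k7* overlapped as well (exact permutation p = 0.90, 0.60 and 0.20, adjusted p = 0.90, 0.69 and 0.32).

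**Figure D3:**
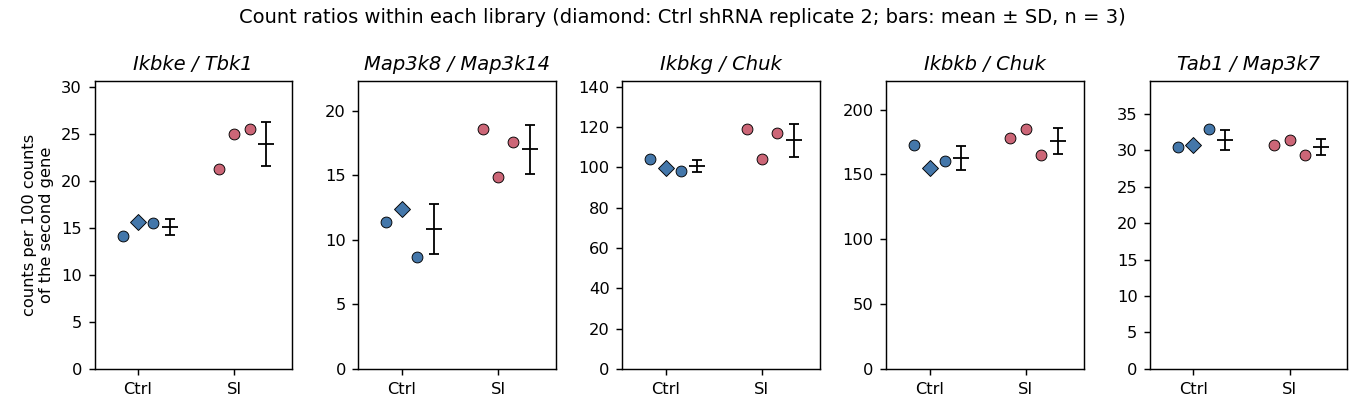
Counts of the first gene per 100 counts of the second in each library (vertical axes, from 0) for 5 pairs, with Ctrl shRNA in blue, SI shRNA in red, Ctrl shRNA replicate 2 as a diamond and the mean ± SD of 3 libraries in black. *Ikbke* per 100 *Tbk1* counts (15.1 ± 0.872 against 23.9 ± 2.31) and *Map3k8* per 100 *Map3k14* counts (10.8 ± 1.92 against 17.0 ± 1.95) lie apart between the groups, while *Tab1* per 100 *Map3k7* counts overlaps.

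On the length-normalized FPKM scale as deposited, *Tab2* was the most abundant member, with a mean level of 27.5 in Ctrl shRNA, followed by *Tbk1* (23.3), *Chuk* (17.4), *Map3k7* (16.5), *Ikbkg* (11.0), *Tab1* (9.91), *Ikbkb* (7.55), *Map3k14* (4.81), *Ikbke* (1.52) and *Map3k8* (0.759). The order of the mean FPKM was the same in SI shRNA, where *Ikbke* reached 2.38 ± 0.217 and *Map3k8* 1.44 ± 0.170 (SD, n = 3), so that the members with the largest differences remained the least abundant. In Ctrl shRNA, the FPKM ranges of *Tab2* and *Tbk1*, of *Chuk* and *Map3k7*, and of *Ikbkg* and *Tab1* overlapped. Within single libraries, *Tab2* was above *Tbk1* in 6 of 6, whereas *Chuk* was above *Map3k7* and *Ikbkg* above *Tab1* in 5 of 6, so the latter pairs are not ordered beyond their spread. The place of *Ikbkb* rests on the length used. Its merged exons span 19078 bases in the deposited table, 4.8 times the 3977 bases of its longest protein-coding transcript, and rescaling to the latter, a choice made after seeing the data, moved it from rank 7 to rank 2 in Ctrl shRNA (level 36.2 ± 3.63) and to rank 1 in SI shRNA (42.6 ± 2.05). *Tab2* had 38.5 ± 3.84 and 41.6 ± 2.56 on the same scale, so *Ikbkb* and *Tab2* are not ordered beyond their spread there. The order of the other 9 members was unchanged by this.

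**Figure D4:**
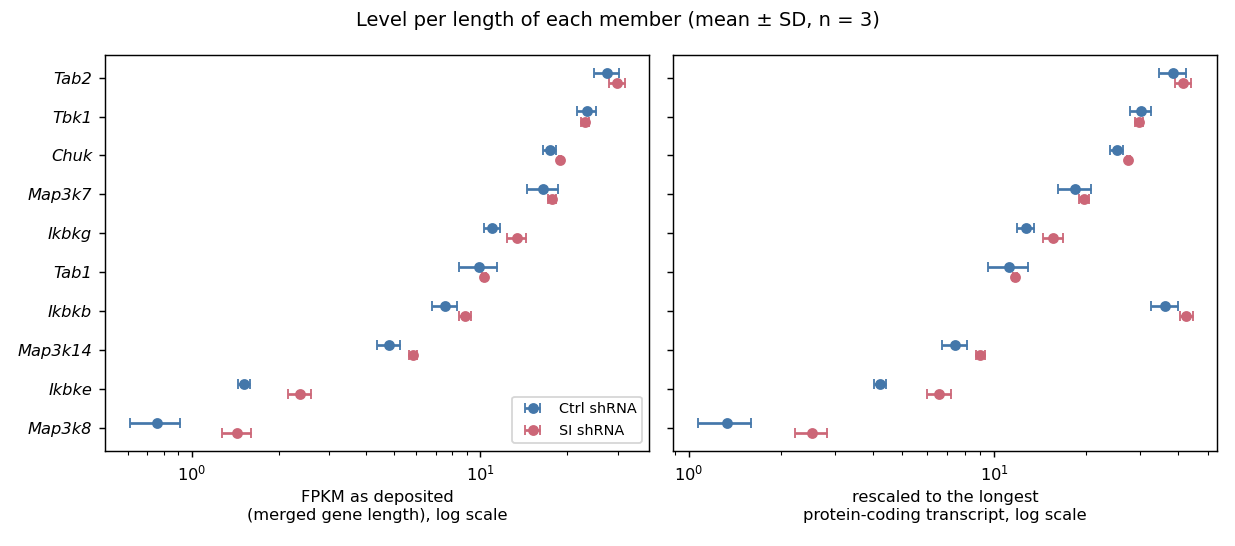
Mean ± SD (n = 3) of each member's level per length in Ctrl shRNA (blue) and SI shRNA (red) on logarithmic horizontal axes, from the deposited FPKM (left) and rescaled to the longest protein-coding transcript (right). *Ikbke* and *Map3k8* are at the bottom on both scales, and *Ikbkb* moves from 7.55 to 36.2 in Ctrl shRNA.

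Across the 6 libraries, the protein-coding genes whose log2 CPM followed *Ikbke* most closely, of 12592 compared, were *Lpxn* (Pearson r = 0.9968), *Lrtm2* (r = 0.9959) and *Ppp4r1* (r = 0.9885). With 6 points in 2 groups, these coefficients mostly describe the step between the groups and a shared order of SI shRNA libraries. The sizes of the steps differed, with log2 fold changes of 1.19, 0.55 and 0.11, and *Lpxn*, the gene of the focal adhesion protein leupaxin, stayed at or below 1.01 CPM.

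The genes around these kinases were read from 6 lists with 113 genes, of which 103 were tested. In edgeR, 0.0588% of all genes were called higher with all libraries and 1.11% without Ctrl shRNA replicate 2 (median log2 fold change -0.0092 and -0.02). DESeq2 called 2.20% of its tested genes higher with all libraries. Of 22 tested adaptors and ubiquitin ligases that act on the kinases, 0 passed in edgeR with or without Ctrl shRNA replicate 2 (median log2 fold change 0.16 and 0.09). *Birc3*, which encodes the cellular inhibitor of apoptosis cIAP2, had 6.09 ± 1.09 CPM in Ctrl shRNA and 9.94 ± 0.680 in SI shRNA, and passed in DESeq2 with all libraries (adjusted p = 0.0228) but not in edgeR without Ctrl shRNA replicate 2 (adjusted p = 0.0852). None of the 15 tested scaffolds and partners passed in edgeR in either fit, where *Tnip1*, the gene of an A20-binding partner of NEMO, had a log2 fold change of 0.56 in edgeR with all libraries and passed in DESeq2 (adjusted p = 0.0389). Among 14 negative regulators, *Tnfaip3*, which encodes the ubiquitin editor A20, passed in edgeR with all libraries (log2 fold change 1.87, adjusted p = 0.0116) and without Ctrl shRNA replicate 2 (1.82, adjusted p = 0.00021). *Zc3h12a*, the gene of the RNase regnase-1, did not pass in edgeR with all libraries (1.39, adjusted p = 0.0935) and passed without that library (1.35, edgeR adjusted p = 0.00795) and in DESeq2 with all libraries (adjusted p = 5.01e-10). Of the 18 direct substrates, the IκB genes *Nfkbia* (0.94, edgeR adjusted p = 0.0273) and *Nfkbie* (1.26, edgeR adjusted p = 0.0249) rose with all libraries, and also without Ctrl shRNA replicate 2 (0.95 and 1.19, edgeR adjusted p = 0.00108 and 0.00103). *Nfkb2*, whose p100 product IKKα phosphorylates for processing, had 204 ± 14.6 CPM in Ctrl shRNA and 338 ± 11.0 CPM in SI shRNA (SD, n = 3) and passed in edgeR only without Ctrl shRNA replicate 2 (log2 fold change 0.66, edgeR adjusted p = 0.00582), as did *Relb* (0.64, edgeR adjusted p = 0.0142). With all libraries, DESeq2 called both (adjusted p = 2.79e-10 and 7.16e-05) and a further substrate gene, *Rel* (adjusted p = 0.00231). Of the 16 receptors tested, 0 passed in edgeR with all libraries, and *Tlr2* (0.77, edgeR adjusted p = 0.00656) and *Tnfrsf1b* (0.41, edgeR adjusted p = 0.0403), which encode a Toll-like and a TNF receptor, passed without Ctrl shRNA replicate 2. DESeq2 called the same 2 receptor genes with all libraries (adjusted p = 4.19e-09 and 0.00185). Of 19 other MAP3 kinases, 0 passed in either edgeR fit or in DESeq2, with medians of 0.04 and -0.03 in edgeR. In all 6 lists, 0 genes passed in the lower direction in these 3 fits, which called 1, 106 and 192 genes lower over the whole table (edgeR with all libraries, edgeR without Ctrl shRNA replicate 2 and DESeq2).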

How the data were processed

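RNA-seq libraries of 3 Ctrl shRNA and 3 SI shRNA samples were grouped by the sample labels. The authors deposited whole-number read counts per Ensembl gene, without normalization, and the deposited FPKM values equal these counts divided by gene length and a scaled library size. The submitters' processing notes name HISAT2 2.0.5, StringTie 1.3.3b, featureCounts 1.5.0-p3 and mm10, and the sample labels also name a Trinity assembly. The strand setting is not given in the sources used here. Gene coordinates matched GENCODE M21 (GRCm38) for 98.3% of the 54532 genes, and every sample column was used, with 0 left over.

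After filterByExpr and TMM scaling, the groups were compared with the quasi-likelihood test of edgeR 4.0.16 (R 4.3.3) without covariates. P-values were adjusted by the Benjamini-Hochberg method over the genes that passed the filter, with a threshold of 0.05. Alternatives were DESeq2 1.42.0 (on the genes kept by the same filter, with an adjusted p for 12032 of them), limma 3.58.1 (voom with sample quality weights, and log2(FPKM + 1) or log2(FPKM + 0.1) for genes with a mean FPKM of at least 0.5), RLE factors, no scaling beyond library size, a minimum of 10 counts per library, no filter, the replicate number as a block and each library left out. Figures were drawn with matplotlib 3.10.9 in Python 3.11.15.

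Replicates differed by more than sampling noise (chi-square per degree of freedom of 6.17 or more), so none was the same library deposited again. The members and the lists were chosen with earlier results of these data known. Named genes are the 10 members, the targeted genes, list genes called with all libraries, up to 3 per list among those called without Ctrl shRNA replicate 2, the 3 genes most correlated with a called member, and markers. *Birc3*, *Tnip1*, *Rel* and *G6pdx* fall outside this rule and were chosen after their values were seen.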

Additional observations from a re-analysis of the deposited data

How the results depend on the processing

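The number of members called higher was 0 with all 6 libraries in edgeR, 2 in DESeq2, 5 in limma-voom with sample quality weights and 2 in DESeq2 without Ctrl shRNA replicate 2. Leaving out 1 library at a time in edgeR gave 0 to 1, with the 1 call, *Ikbke*, only without Ctrl shRNA replicate 2. The number of list genes called higher was 3 in edgeR, 11 in DESeq2, 20 in limma-voom with sample quality weights, 13 in DESeq2 without Ctrl shRNA replicate 2 and 0 to 8 when 1 library was left out, with 8 without Ctrl shRNA replicate 2, 1 without Ctrl shRNA replicate 1 and 0 without any of the others. Over all genes, these edgeR fits called 175 higher without Ctrl shRNA replicate 2, 1 without Ctrl shRNA replicate 1 and 0 without any other, beside 9 with all libraries, 265 in DESeq2, 543 in DESeq2 without Ctrl shRNA replicate 2 and 1327 in limma-voom with weights, so the list counts moved with the total called. In limma-voom with weights, 2 list genes were called lower, beside 971 of all 15307 genes. Correlations of the deviations from the group means were -0.15, -0.09 and 0.04 for same-numbered samples of the groups. The control deviations were dominated by Ctrl shRNA replicate 2, so these values cannot decide whether same-numbered samples shared a batch. With the replicate block, 0 of all 15307 genes were called, members and list genes included. Among 160 alternative values of single members, 143 kept direction and side of the threshold, 10 came to pass it and 7 turned direction. These 7 were *Tbk1* at 0.14 with library size only, 0.03 without Ctrl shRNA replicate 1 and 0.01 without SI shRNA replicate 2, *Map3k7* at -0.0014 without Ctrl shRNA replicate 2, and *Tab1* at -0.08 in limma-voom with weights, -0.06 without Ctrl shRNA replicate 2 and -0.05 in DESeq2 without that library. With 1 library left out at a time, *Map3k7* ranged from -0.0014 to 0.15, *Tab1* from -0.06 to 0.13 and *Tbk1* from -0.08 to 0.03. The cause was not tested for any of these, and none of the 7 passed the threshold. Library size only moved the median log2 fold change of all genes from -0.0092 to 0.16 and that of the members from 0.18 to 0.34, so *Tbk1* stayed below the median of all genes there. *Ikbke* was higher under all 16 alternatives (0.42 to 0.81) and passed in 4, and *Map3k8* was higher under all 16 (0.47 to 1.23) and passed in 3, with adjusted p of 0.000224 to 0.675 for *Ikbke* and 0.00242 to 0.675 for *Map3k8* in edgeR, DESeq2 and limma. The biological coefficient of variation in edgeR was 0.263 with all libraries and 0.102 without Ctrl shRNA replicate 2, which limits the differences that pass.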
